A study of Homo sapiens with 4 samples.

Results

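The mitochondrial ribosomal protein genes were followed in stem-like cells of a breast cancer line after knockdown of KDM1A. They were taken by symbol, as every gene whose name is MRPL or MRPS followed by a number and at most 1 letter from A to C. This gave 76 of the 23228 genes listed, 47 with a large subunit symbol and 29 with a small subunit symbol, and the rule uses no measured value, though it was set with earlier results of these data known. The cells were MDA-MB-231, a long-established human cell line from a breast cancer that lacks the hormone receptors and HER2 amplification. Cancer stem cells had been sorted from it by ALDEFLUOR, an assay of aldehyde dehydrogenase activity, and grown in MammoCult medium. The 2 groups were cells with stable lentiviral expression of KDM1A shRNA and cells with stable lentiviral expression of control shRNA, with 2 libraries each of total RNA. The labels name no second hairpin against KDM1A and no rescue, so what follows from losing KDM1A, from the hairpin itself or from the history of each culture cannot be told apart. The labels do not say whether a group's 2 libraries are separate cultures or repeat preparations. The p-values therefore measure spread among the libraries alone, and that spread may be technical.

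Mitochondria carry their own ribosome, which makes the few membrane proteins of the respiratory chain encoded by mitochondrial DNA. Its ribosomal RNAs come from that DNA, but all of its proteins are encoded in the nucleus, made in the cytosol and imported. Many descend from proteins of the bacterial ribosome, and others were added in the mitochondrial lineage and have no bacterial counterpart. A large subunit joins amino acids and releases the chain at the inner membrane, and a small subunit reads the messenger RNA. KDM1A, also called LSD1, removes methyl groups from lysine 4 of histone H3 in the CoREST repressor complex.

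The promoters of 4 members are shown because these members moved most in each direction among those with a promoter entry. MRPL1 and MRPS18C rose and MRPS18B and MRPS21 fell. The windows run from 250 bases before to 50 bases after the annotated start, as RefSeq gives them on GRCh38.p14. They lie at chr4:77862580-77862879 (MRPL1), chr4:83455808-83456107 (MRPS18C), chr6:30617590-30617889 (MRPS18B) and chr1:150293611-150293910 (MRPS21), all on the plus strand. Capitals mark matches, on either strand, to a motif of YY1 (AANATGGC) or of ETS factors such as GABP (CCGGAAG), factors known to bind promoters of genes for mitochondrial proteins.
MRPL1: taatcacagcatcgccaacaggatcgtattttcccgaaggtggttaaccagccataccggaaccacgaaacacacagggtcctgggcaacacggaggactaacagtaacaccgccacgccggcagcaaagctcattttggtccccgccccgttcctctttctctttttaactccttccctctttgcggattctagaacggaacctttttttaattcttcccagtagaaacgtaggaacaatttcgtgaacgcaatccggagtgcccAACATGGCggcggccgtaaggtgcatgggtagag
MRPS18C: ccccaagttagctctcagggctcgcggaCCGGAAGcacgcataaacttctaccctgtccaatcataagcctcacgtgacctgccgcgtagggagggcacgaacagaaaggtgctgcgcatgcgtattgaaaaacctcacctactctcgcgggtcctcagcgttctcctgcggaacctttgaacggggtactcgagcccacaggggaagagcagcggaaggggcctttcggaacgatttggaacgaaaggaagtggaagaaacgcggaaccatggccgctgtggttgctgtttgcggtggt
MRPS18B: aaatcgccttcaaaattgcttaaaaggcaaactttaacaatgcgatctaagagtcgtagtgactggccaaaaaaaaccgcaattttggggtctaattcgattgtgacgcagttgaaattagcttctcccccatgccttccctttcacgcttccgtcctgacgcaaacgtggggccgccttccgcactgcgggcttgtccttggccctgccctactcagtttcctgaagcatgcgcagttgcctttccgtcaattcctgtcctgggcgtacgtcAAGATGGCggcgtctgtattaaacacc
MRPS21: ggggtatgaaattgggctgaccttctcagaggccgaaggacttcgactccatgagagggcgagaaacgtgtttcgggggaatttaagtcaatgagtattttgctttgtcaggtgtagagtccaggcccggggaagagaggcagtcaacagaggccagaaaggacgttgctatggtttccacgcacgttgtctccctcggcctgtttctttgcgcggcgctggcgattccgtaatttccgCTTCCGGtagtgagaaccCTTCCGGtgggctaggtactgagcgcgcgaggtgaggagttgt
A YY1 match lay just downstream of the start in MRPL1, which rose, and in MRPS18B, which fell. ETS matches stood in MRPS18C, which rose, and on the minus strand in MRPS21, which fell, where there were 2.

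The knockdown and the identity of the cells were checked first. KDM1A had 561 and 649 reads in KDM1A shRNA libraries 1 and 2, against 4660 and 4059 reads in control libraries 1 and 2, which is 14.2% of the control level (edgeR adjusted p = 2.2e-14). All 10 genes typical of MDA-MB-231 were present, with summed levels of 7507 and 7534 CPM (reads scaled to the library's total) in KDM1A shRNA libraries against 7155 and 7242 CPM in control libraries. ESR1, the estrogen receptor, had 0 and 1 reads in KDM1A shRNA libraries against 7 and 9 reads in control libraries. PGR, the progesterone receptor, had at most 1 read in any library. The other 5 of the 7 luminal and receptor genes listed were tested and all were called. ERBB2, GATA3, CDH1 and EPCAM rose (log2 fold changes 0.41, 0.36, 0.36 and 0.41) and FOXA1 fell (−1.62). CDKN2A, which MDA-MB-231 is known to lack, had 13 and 19 reads in KDM1A shRNA libraries, against 323 and 329 reads in control libraries. The control libraries thus went against the known genotype of the line, and a part of this in the values of the members was not tested. Markers of other cell types moved too: the 7 fibroblast markers summed to 109 and 101 CPM in KDM1A shRNA libraries against 145 and 141 CPM in control libraries. The lower sum came from DCN, with 1382 and 1351 reads with KDM1A shRNA against 3361 and 2901 reads with control shRNA, while COL1A1, LUM and PDGFRB, the other 3 of the 4 tested, rose (log2 fold changes 0.86, 2.90 and 1.47). The 4 leukocyte markers summed to 3.05 and 3.45 CPM in KDM1A shRNA against 5.16 and 6.47 CPM in control. Most of that sum was CD14, at 2.80 and 3.30 CPM with KDM1A shRNA against 5.05 and 6.27 CPM with control shRNA. The 3 endothelial markers summed to 21.6 and 22.2 CPM in KDM1A shRNA against 27.5 and 27.3 CPM in control. Most of this was PECAM1, at 21.1 and 21.9 CPM with KDM1A shRNA against 25.9 and 26.0 CPM with control shRNA. Among the defining genes of these cell types THY1 was at 0 with KDM1A shRNA and at 1 read in each control library. PTPRC had 4 and 3 reads with KDM1A shRNA against 2 and 2 reads with control shRNA. CDH5 had 9 and 5 reads with KDM1A shRNA against 21 and 20 reads with control shRNA. Their part in the results was not tested. Gene reads per library ranged from 23902900 to 26923678. In these bulk samples, a change in the makeup of the cells and a change in the RNA of each cell cannot be told apart.

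Mitochondrial ribosomal protein genes changed little and in both directions. Of the 76 genes 75 were tested, and 20 rose and 17 fell after KDM1A knockdown at an edgeR adjusted p under 0.05, while 38 did not pass. Among the members 26.7% rose and 22.7% fell, 49.3% in all, against 27.3%, 28.8% and 56.1% of all 14012 genes tested. The changes were small. The median log2 fold change of the members was 0.05 (all genes −0.00), and the median size without regard to sign was 0.13 (all genes 0.24). Among the 6996 genes in the members' range of average level, 58.0% were called and the median size was 0.17. None of the 75 changed by 1.5-fold or more, against 20.7% of all genes. Changes over 1.2-fold were seen in 12 members, or 16%, against 46.3% of all genes. Read by the libraries alone, the groups did not overlap for 31 members that were higher and 24 that were lower with KDM1A shRNA, or 73.3% in all. Over all genes tested 38.1% were higher and 39.6% lower without overlap, or 77.7%. These counts depended on the libraries and the filter. Fewer members passed without either KDM1A shRNA library, and their share then lay further below that of all genes. Without control library 2 the members' share lay slightly above that of all genes. With every gene of at least 1 read kept, 47.4% of the members were called against 46.3% of all genes. The members' median log2 fold change was 0.05 and 0.03 without KDM1A shRNA library 1 or 2, and 0.03 without either control library.

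For the members that did not pass the test, the intervals give a range for the change. They rest on the spread among these libraries alone, which may be technical, so they do not bound a change between separate cultures. In 35 of the 38 the 95% interval of the log2 fold change lay within 1.2-fold in either direction, and in all 38 within 1.5-fold. MRPS27, the member with the highest read level, had 183 and 176 CPM (scaled by TMM, as are all levels that follow) in KDM1A shRNA libraries against 188 and 175 CPM in control libraries. The groups overlapped, and the log2 fold change was −0.01 with an interval of −0.11 to 0.08. MRPS16, a small subunit protein with a bacterial counterpart, had 125 and 124 CPM with KDM1A shRNA against 117 and 119 CPM with control shRNA. Its groups did not overlap, but the interval of −0.01 to 0.17 included 0 and the gene did not pass (edgeR adjusted p = 0.11).

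**Figure D1:**
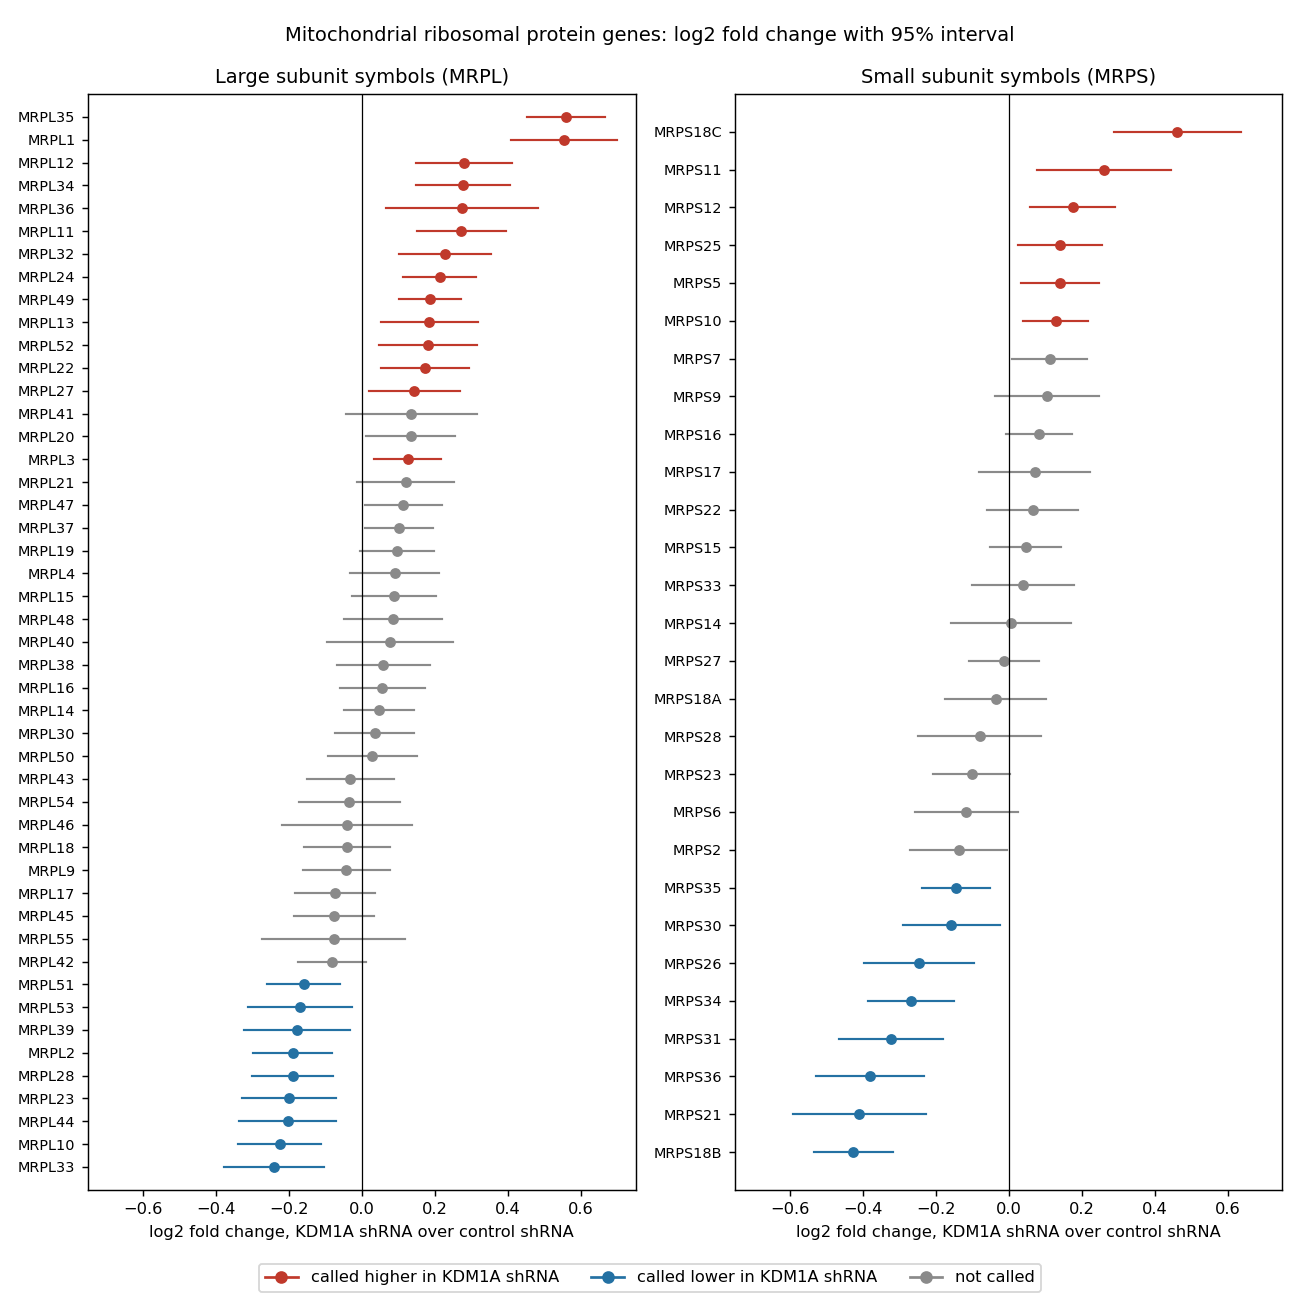
log2 fold change of KDM1A shRNA over control shRNA for each of the 75 members tested, large subunit symbols on the left and small subunit symbols on the right, ordered by value. Points are edgeR estimates and lines 95% intervals; MRPL35 stands highest at 0.56 and MRPS18B lowest at −0.43.

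The 8 largest rises were all in proteins with a bacterial counterpart. MRPL35 (chromosome 2, 86426478 to 86440913, plus strand, GRCh37, as for all gene positions that follow), a large subunit protein, had 2059 and 2245 reads in KDM1A shRNA libraries against 1607 and 1390 reads in control libraries. Its level was 86.5 ± 0.734 CPM with KDM1A shRNA against 58.7 ± 1.91 CPM with control shRNA (SD, n = 2 each), a log2 fold change of 0.56 (SE 0.05, edgeR adjusted p = 3.0e-07). MRPL1 (chromosome 4, 78783984 to 78873939), whose bacterial counterpart forms the stalk beside the site where spent tRNA leaves, had 1234 and 1330 reads with KDM1A shRNA against 1004 and 792 reads with control shRNA. That is 51.5 ± 0.0157 CPM with KDM1A shRNA against 35.1 ± 3.42 CPM with control shRNA, with a log2 fold change of 0.55 (SE 0.07, edgeR adjusted p = 7.2e-06). For both genes every KDM1A shRNA library stood above both control libraries.

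MRPS18C was the small subunit gene with the largest rise. It encodes 1 of the 3 human relatives of the bacterial protein S18. It had 560 and 573 reads in KDM1A shRNA libraries against 459 and 386 reads in control libraries, or 23.4 and 22.2 CPM with KDM1A shRNA against 17.1 and 15.9 CPM with control shRNA. The log2 fold change was 0.46 with an SE of 0.08 (edgeR adjusted p = 0.00021). The 3 relatives did not move together. MRPS18B (chromosome 6, 30585617 to 30594172), which sits in the small subunit away from the place of S18, showed the largest fall of any member. It had 2539 and 2510 reads with KDM1A shRNA against 3770 and 3203 reads with control shRNA, or 102 ± 6.18 CPM with KDM1A shRNA against 136 ± 6.18 CPM with control shRNA (log2 fold change −0.43, SE 0.05, edgeR adjusted p = 5.7e-06). MRPS18A, which is found in the large subunit despite its symbol, had 39.2 and 40.4 CPM with KDM1A shRNA against 38.9 and 42.8 CPM with control shRNA and overlapping groups. Its log2 fold change was −0.04 with an interval of −0.17 to 0.10. RSPH9 covers 60.6% of its transcript on the opposite strand, and whether the reads were counted by strand is not known here.

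**Figure D2:**
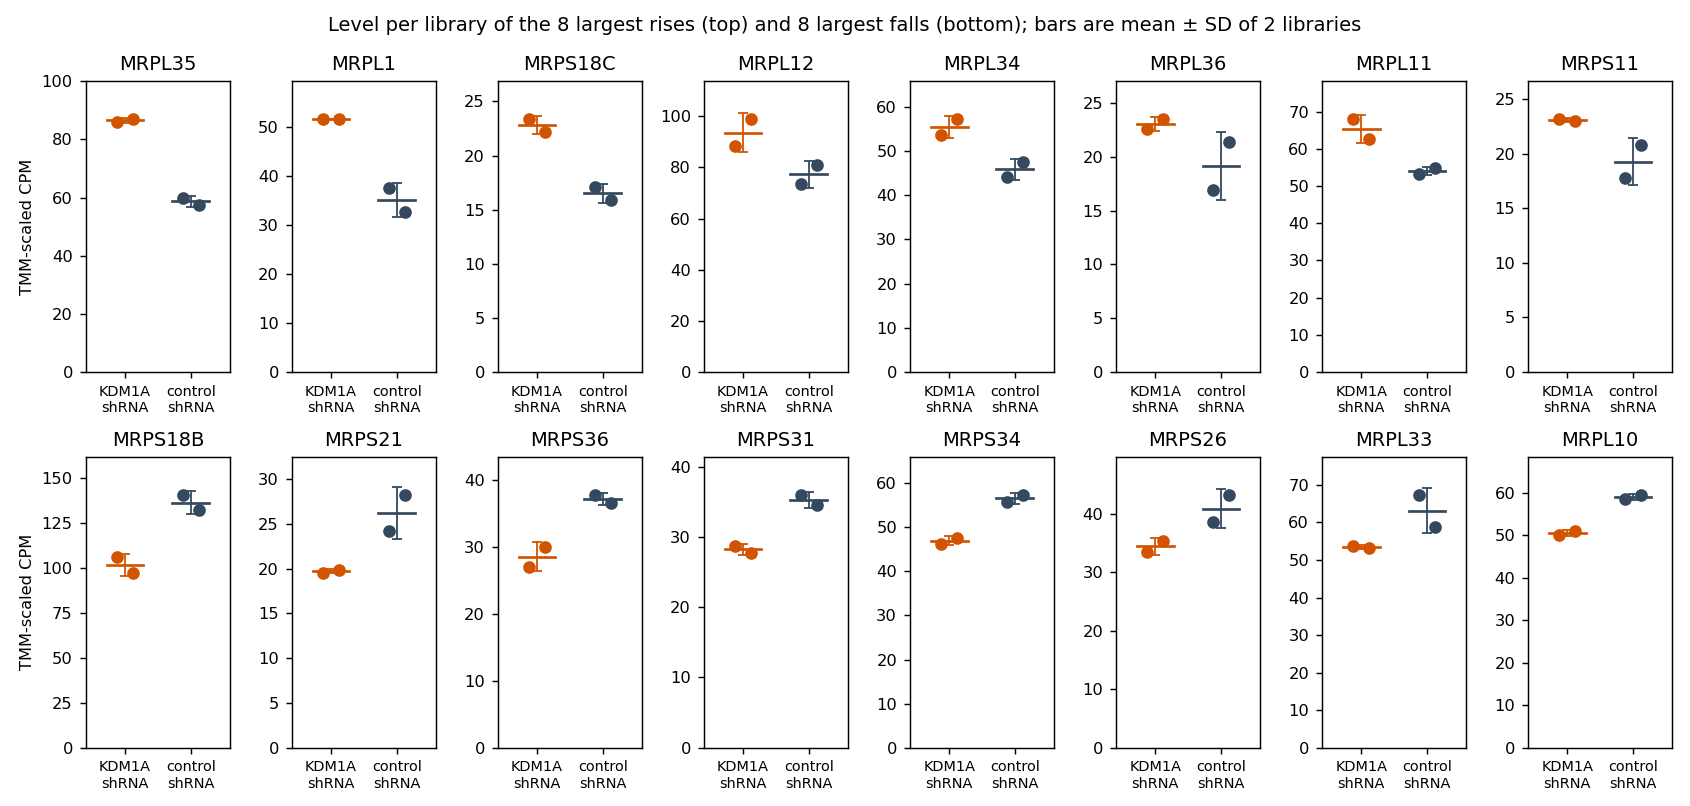
TMM-scaled CPM of the 8 largest rises (top row) and 8 largest falls (bottom row) among members that passed the test, KDM1A shRNA left of control shRNA in each panel. Points are libraries and bars the mean ± SD of 2 libraries; MRPL35 reached 86.0 and 87.0 CPM with KDM1A shRNA against 60.0 and 57.3 CPM with control shRNA.

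The stalk of the large subunit, which recruits translation factors, held rises and falls. MRPL12, the stalk protein present in several copies, had 88.3 and 98.9 CPM in KDM1A shRNA libraries against 73.6 and 80.9 CPM in control libraries (log2 fold change 0.28, SE 0.06, edgeR adjusted p = 0.0012). Its groups did not overlap, though the call was lost without KDM1A shRNA library 2. MRPL11, at the base of the stalk, had 68.0 and 62.7 CPM with KDM1A shRNA against 53.4 and 54.8 CPM with control shRNA (0.27, SE 0.06). MRPL10, which anchors the copies of MRPL12, moved the other way, with 49.9 and 51.0 CPM with KDM1A shRNA against 58.5 and 59.5 CPM with control shRNA (−0.23, SE 0.05, edgeR adjusted p = 0.0024). MRPL53 also fell, by 0.17 on the log2 scale with an edgeR adjusted p of 0.043. That call was lost when either KDM1A shRNA library or control library 1 was left out, and MRPL54 had a log2 fold change of −0.03 and did not pass.

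Other large subunit genes that rose included MRPL34 and MRPL36, which encode small proteins of the bacterial type. MRPL34 had 53.7 and 57.2 CPM in KDM1A shRNA libraries against 44.2 and 47.5 CPM in control libraries (log2 fold change 0.28, SE 0.06). MRPL36 had 22.6 and 23.5 CPM with KDM1A shRNA against 16.9 and 21.4 CPM with control shRNA (0.27, SE 0.10, edgeR adjusted p = 0.027). The control libraries lay far apart there, and the call was lost without either KDM1A shRNA library or control library 1. MRPL33, also a small protein of this type, fell instead, with 53.9 and 53.1 CPM with KDM1A shRNA against 67.4 and 58.9 CPM with control shRNA (−0.24, SE 0.06), a call lost without KDM1A shRNA library 2.

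Around the tunnel through which new chains leave, 2 of 11 members rose and 4 fell, 54.5% in all against 56.1% of all genes tested. MRPL24 (0.21, SE 0.05) and MRPL22 (0.17, SE 0.06), which have bacterial counterparts, were the rises. MRPL23 (−0.20), MRPL44 (−0.20), MRPL39 (−0.18) and MRPS30 (−0.16), which sits in the large subunit despite its symbol, were the falls. Of these 6 calls the MRPL24 one alone held without each library in turn: all others were lost without KDM1A shRNA library 2, and those of MRPL22, MRPL23, MRPL39 and MRPS30 also without library 1. The MRPL39 and MRPS30 calls were lost without control library 1 as well. MRPL45, which tethers the ribosome to the inner membrane, had 59.9 and 61.2 CPM in KDM1A shRNA libraries against 64.2 and 63.6 CPM in control libraries and did not pass (interval −0.19 to 0.03). Of the 8 members in the central protuberance, the crown of the large subunit, 25% were called. MRPL52 (0.18) and MRPL27 (0.14) rose, 2 of the 8, and 0 fell. Both calls were lost without either KDM1A shRNA library. The MRPL52 call was also lost without control library 1 and the MRPL27 call without control library 2.

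Falls in the small subunit were largely in proteins without a bacterial counterpart. MRPS31 had 28.8 and 27.6 CPM in KDM1A shRNA libraries against 36.0 and 34.5 CPM in control libraries (log2 fold change −0.32, SE 0.07, edgeR adjusted p = 0.00077). MRPS34, mutated in a human disease of combined respiratory chain deficiency, had 46.2 and 47.6 CPM with KDM1A shRNA against 55.7 and 57.4 CPM with control shRNA (−0.27, SE 0.06). In both genes the groups lay well apart. MRPS26 had 33.4 and 35.4 CPM with KDM1A shRNA against 38.5 and 43.3 CPM with control shRNA (−0.25, SE 0.07), a call lost without KDM1A shRNA library 1, and MRPS35 fell by 0.14 on the log2 scale, a call lost without either KDM1A shRNA library. EME2 covers 32.6% of the MRPS34 transcript on the opposite strand.

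MRPS21 and MRPS36 fell as well. MRPS21, which has a bacterial counterpart, had 468 and 512 reads in KDM1A shRNA libraries against 647 and 685 reads in control libraries, or 19.5 and 19.8 CPM with KDM1A shRNA against 24.2 and 28.2 CPM with control shRNA (log2 fold change −0.41, SE 0.09, edgeR adjusted p = 0.00085). MRPS36, known today as KGD4 and as a subunit of the 2-oxoglutarate dehydrogenase complex of the citric acid cycle, is a ribosomal protein by symbol only. It had 648 and 775 reads with KDM1A shRNA against 1012 and 887 reads with control shRNA, or 28.5 ± 2.11 CPM with KDM1A shRNA against 37.2 ± 0.866 CPM with control shRNA (SD, n = 2 each). The log2 fold change was −0.38, with an SE of 0.07 and an edgeR adjusted p of 0.00030. Other calls were small. MRPL32 (0.23), MRPL13 (0.18), MRPL3 (0.13), MRPS12 (0.18), MRPS25 (0.14) and MRPS5 (0.14) rose, while MRPL2 (−0.19) and MRPL28 (−0.19) fell. The calls of these 8 genes were lost without at least 1 of the KDM1A shRNA libraries.

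Set out by descent, the members differed in the balance of rises and falls. Of 45 tested members with a bacterial counterpart 17 rose and 6 fell, with a median log2 fold change of 0.10, where 27.3% of all genes rose and 28.8% fell. Of 29 tested members particular to mitochondria 3 rose and 10 fell, with a median of −0.04. In the large subunit 12 rose and 5 fell with a bacterial counterpart, and 2 rose and 5 fell without one. In the small subunit 5 rose and 1 fell with a counterpart, and 1 rose and 5 fell without one. Without KDM1A shRNA library 1 the counts were 8 rises and 3 falls with a bacterial counterpart and 1 rise and 5 falls without one. Without KDM1A shRNA library 2 they were 7 rises and 2 falls with a counterpart and 1 rise and 4 falls without one. In these fits 42.1% and 41.8% of all genes were called. These are descriptions, and the difference between the classes was not tested. MRPS18A and MRPS18B, relatives of S18 that sit elsewhere in the ribosome, were counted as particular to mitochondria, and MRPS36 belongs to neither class.

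**Figure D3:**
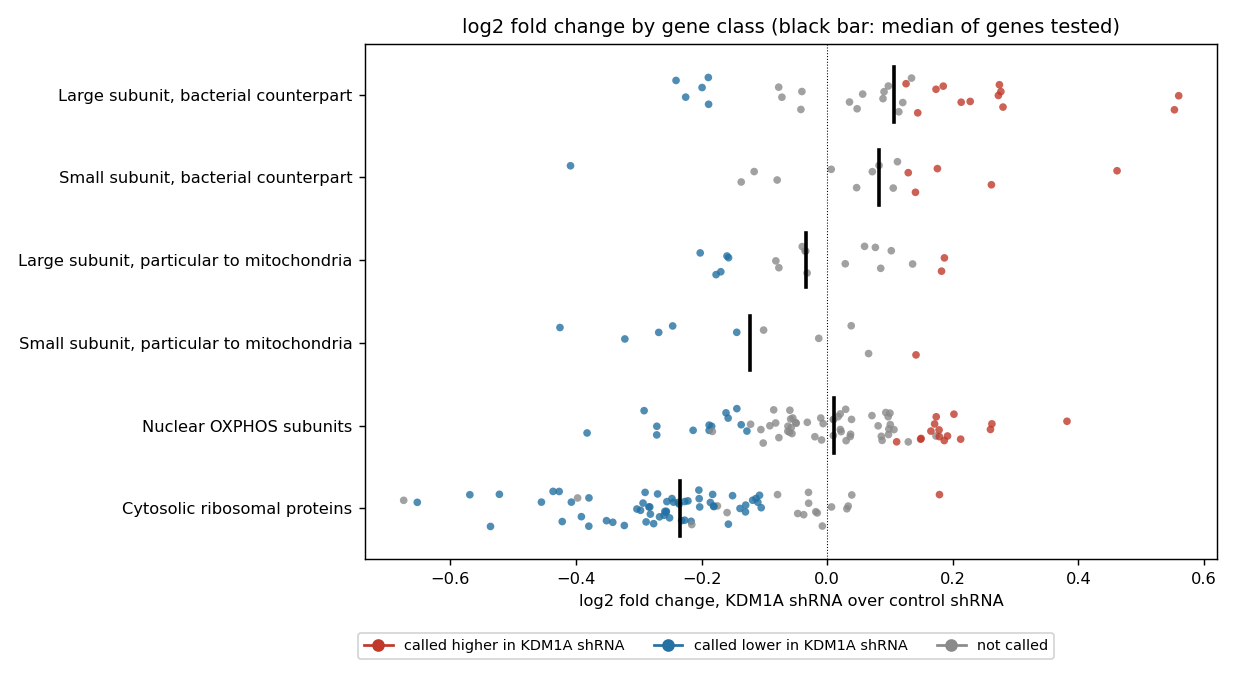
log2 fold change of KDM1A shRNA over control shRNA for each gene tested, by class, with the class median as a black bar. Members with a bacterial counterpart have medians of 0.11 (large subunit) and 0.08 (small subunit), members particular to mitochondria −0.03 and −0.12, nuclear OXPHOS subunits 0.01 and cytosolic ribosomal proteins −0.23.

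By subunit symbol, 14 large subunit genes rose and 9 fell of 47, and 6 small subunit genes rose and 8 fell of 28. That is 48.9% and 50% called, against 56.1% of all genes tested. The summed level of large subunit genes was 2970 and 3015 CPM in KDM1A shRNA libraries, against 2852 and 2869 CPM in control libraries. That of small subunit genes was 1715 and 1715 CPM with KDM1A shRNA against 1761 and 1752 CPM with control shRNA. Both sums go by symbol, so the latter includes MRPS18A and MRPS30 of the large subunit and MRPS36, ribosomal by symbol only. MRPS18B alone had a mean of 102 CPM with KDM1A shRNA against 136 CPM with control shRNA. Of the 28 small subunit symbols tested, 14 had a positive and 14 a negative log2 fold change. The ratio of the sums was 1.73 and 1.76 with KDM1A shRNA against 1.62 and 1.64 with control shRNA, so the groups did not overlap, but 2 against 2 libraries cannot give an exact two-sided permutation p below 0.333. In all, the members took 0.469% and 0.474% of gene reads in KDM1A shRNA libraries, against 0.459% and 0.462% in control libraries. The 95% Wilson intervals of these shares, which cover counting error only, reached down to 0.467% in the KDM1A shRNA libraries and up to 0.465% in the control libraries.

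**Figure D4:**
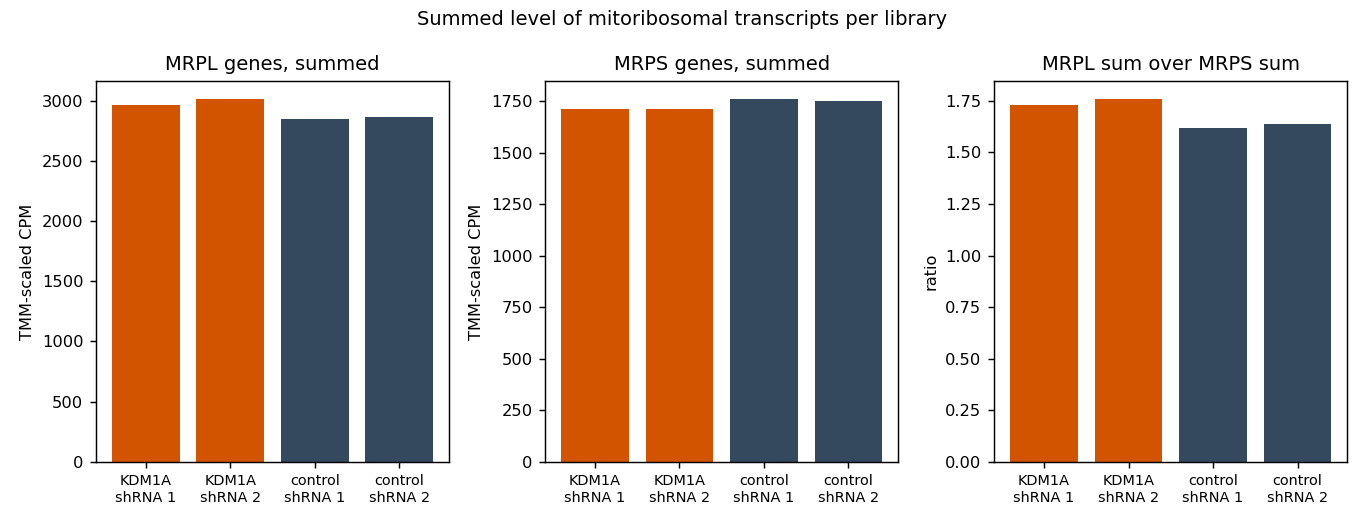
Summed TMM-scaled CPM of the MRPL genes (left) and MRPS genes (middle) and the ratio of the sums (right) in each of the 4 libraries, 1.73 and 1.76 with KDM1A shRNA against 1.62 and 1.64 with control shRNA. Each bar is 1 library, without error bars.

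Levels between members were compared per kilobase of the annotated canonical transcript. Member levels ran from 6.80 to 119 CPM per kilobase in KDM1A shRNA libraries, with a median of 43.9, and from 5.68 to 133 in control libraries, with a median of 42.3. MRPL51 was highest in both groups, with 119 CPM per kilobase in KDM1A shRNA against 133 in control. MRPL33 had 105 CPM per kilobase in KDM1A shRNA, below MRPL24, against 124 in control, where it came next after MRPL51. MRPS11 was lowest, with 6.80 in KDM1A shRNA against 5.68 in control. This order depends on the annotated lengths, and the annotation used for counting is not known. MRPL42, with 110 CPM in KDM1A shRNA and 117 CPM in control, had 7.1 and 7.5 per kilobase over an annotated 15557 bases. MRPL51 fell (log2 fold change −0.16) and MRPS11 rose (0.26, edgeR adjusted p = 0.017), calls lost without KDM1A shRNA library 2 for both and without library 1 or control library 1 for MRPS11. The log2 fold change showed no more than a weak rank correlation over the 75 members with transcript length (Spearman rho 0.06) or with the mean control CPM (rho −0.00). These are descriptions across genes of the same libraries. MRPL49 (170 and 174 CPM with KDM1A shRNA against 151 and 151 CPM with control shRNA, log2 fold change 0.19, SE 0.04) and MRPS10 (147 and 143 CPM with KDM1A shRNA against 132 and 133 CPM with control shRNA, 0.13, SE 0.04) had the highest read levels after MRPS27 on the average over the 4 libraries, and both rose, though the MRPS10 call was lost without either KDM1A shRNA library.

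MRPS24 could not be tested. It had 1 and 0 reads in KDM1A shRNA libraries and 0 and 1 reads in control libraries. Its transcript (chromosome 7, 43906157 to 43909492, minus strand) shares 90.9% of its length with URGCP-MRPS24, a readthrough gene that the counts also list, and the part of that overlap in its count was not tested. Its level is not known from these counts. SLC5A3 overlaps the MRPS6 transcript on the same strand, and MRPS6 did not pass the test.

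Mitochondrial ribosomal proteins with other symbols were looked at apart. Of these 7 genes 2 rose and 0 fell, 28.6% in all against 56.1% of all genes tested. PTCD3, a small subunit protein that meets the messenger RNA, had 5536 and 6006 reads in KDM1A shRNA libraries against 5175 and 4597 reads in control libraries, with means of 232 CPM for KDM1A shRNA and 191 CPM for control shRNA (log2 fold change 0.28, SE 0.04, edgeR adjusted p = 2.0e-05). MRP63, a large subunit protein, rose by 0.21 (SE 0.07, edgeR adjusted p = 0.017), but not without either KDM1A shRNA library or control library 1. DAP3, a small subunit protein that binds GTP, had a log2 fold change of −0.01 (SE 0.04) and did not pass.

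Factors that build the ribosome and work with it also moved both ways. Among 24 assembly factors 6 rose and 4 fell, 41.7% in all against 56.1% of all genes tested. TFB1M, which methylates the small subunit ribosomal RNA, showed the largest change there, with 276 and 315 reads in KDM1A shRNA libraries against 547 and 509 reads in control libraries, or 11.9 ± 0.484 CPM with KDM1A shRNA against 20.7 ± 0.394 CPM with control shRNA (log2 fold change −0.80, SE 0.09, edgeR adjusted p = 1.9e-06). MTERFD1, needed for assembly of the large subunit in mice, rose (0.40, SE 0.06). Among 16 translation factors 4 rose and 6 fell, 62.5% in all. TUFM, the elongation factor that brings tRNA to the ribosome, had 203 and 202 CPM with KDM1A shRNA against 245 and 253 CPM with control shRNA (−0.30, SE 0.04, edgeR adjusted p = 1.1e-05). Its exchange factor TSFM had 26.8 and 25.9 CPM with KDM1A shRNA against 37.1 and 36.4 CPM with control shRNA (−0.48, SE 0.07, edgeR adjusted p = 1.9e-05), and the groups of both genes lay apart.

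Of 20 mitochondrial aminoacyl-tRNA synthetases and related enzymes 3 rose and 4 fell, 35% in all against 56.1% of all genes tested. TARS2 (−0.50, SE 0.06) and NARS2 (−0.41, SE 0.07), which charge threonine and asparagine tRNA, were among the falls. Of 17 genes for transcription and RNA processing in mitochondria 7 rose and 4 fell, or 64.7%. TFAM, which packs mitochondrial DNA and starts its transcription, had 120 ± 0.708 CPM in KDM1A shRNA libraries against 99.8 ± 0.312 CPM in control libraries (log2 fold change 0.26, SE 0.04), and HSD17B10, a subunit of mitochondrial RNase P, rose by 0.34 (SE 0.05). Of 10 regulators of mitochondrial biogenesis 3 rose and 4 fell, or 70%. PPARGC1A, the coactivator PGC-1 alpha, had 394 and 430 reads with KDM1A shRNA against 281 and 212 reads with control shRNA, or 16.6 ± 0.152 CPM with KDM1A shRNA against 9.62 ± 1.24 CPM with control shRNA (0.78, SE 0.10, edgeR adjusted p = 1.5e-05). ESRRA, a nuclear receptor that PGC-1 alpha works with, had 52.0 and 55.9 CPM with KDM1A shRNA against 74.0 and 80.3 CPM with control shRNA (−0.51, SE 0.06, edgeR adjusted p = 3.4e-06). GABPA, the subunit of GABP that binds DNA at ETS motifs, fell (−0.25, SE 0.07), a call lost without KDM1A shRNA library 2, its partner GABPB1 rose (0.27, SE 0.07), and NRF1 (0.09, SE 0.08) and YY1 (0.08, SE 0.04) did not pass.

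Genes for the respiratory chain and for the cytosolic ribosome were measured alongside. Nuclear genes for subunits of the respiratory chain and ATP synthase rose in 15 and fell in 13 of 76. That is 36.8% called, against 56.1% of all genes tested, with a median log2 fold change of 0.01. Cytosolic ribosomal protein genes rose in 1 and fell in 58 of 76, 77.6% in all, with a median of −0.23. RPL4 had 428 and 430 CPM in KDM1A shRNA libraries against 581 and 581 CPM in control libraries. The mitochondrial members had 20 rises and 17 falls of 75, and the difference between the lists was not tested. Many cytosolic ribosomal protein genes have near-identical pseudogene copies, and reads with more than 1 alignment were set aside, so their values are uncertain.

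Promoter entries were found for 67 of the 76 members. MRPL2, MRPL10, MRPL13, MRPL15, MRPL21, MRPL23, MRPL35, MRPS28 and MRPS36 had none. An ETS match (CCGGAAG) stood in 28 of the 67 windows, or 41.8%, against 18.3% of the 9646 windows of genes tested here and 10.7% of all 27305 windows. A YY1 match (AANATGGC) stood in 25, or 37.3%, against 10.1% and 6.82%. The NRF1 motif stood in 7, or 10.4%, against 11.1% and 6.28%, and the GC box (GGGCGG) in 41, or 61.2%, against 69.6% and 44.6%. All motifs were read on both strands, and no match says only that these letters are not in the window.

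Split by the call, an ETS match stood in 6 of 18 windows of members that rose, 8 of 13 of members that fell and 14 of 35 of those that did not pass. A YY1 match stood in 7 of 18, 3 of 13 and 14 of 35. The windows of MRPL1 and MRPS18B shown above thus share a YY1 match while the genes moved in opposite directions. These counts are small and were not tested.

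**Figure D5:**
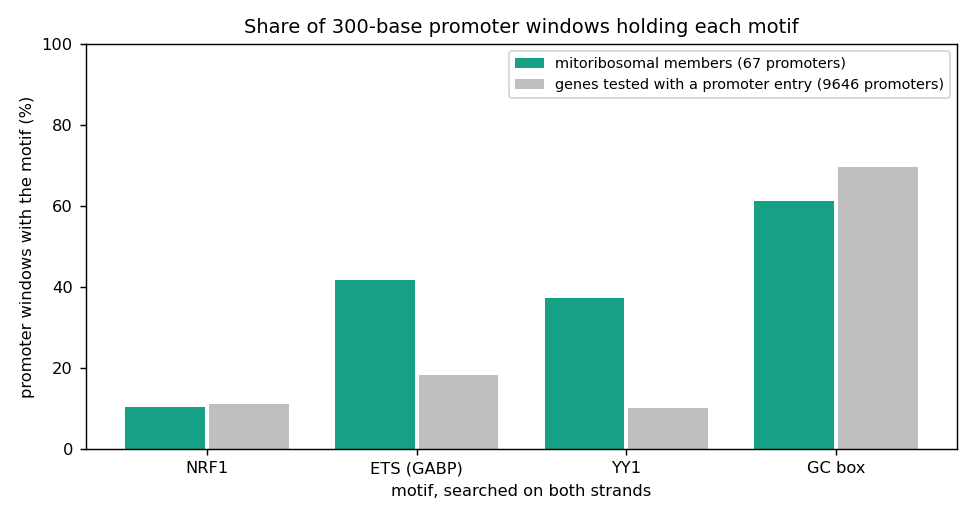
Share of promoter windows of 300 bases, in percent, that hold each motif on either strand, for the 67 members with an entry and for the 9646 tested genes with an entry. The ETS motif stands in 41.8% of member windows against 18.3%, the YY1 motif in 37.3% against 10.1%.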

How the data were processed

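Each library has a deposited table of raw read counts by gene symbol, with no normalization by the authors. The submitters' processing notes name hg19, TopHat2 2.0.8b, CASAVA 1.8.2 and HTSeq; annotation and strandedness are not given in the sources used here. Each file lists 23228 genes; its 5 summary lines were left out, so genes held 61.0% and 61.1% of the total with KDM1A shRNA against 59.0% and 59.1% with control shRNA, and reads with more than 1 alignment 29.8% and 29.7% with KDM1A shRNA against 32.2% and 31.9% with control shRNA; the groups did not overlap, and the part of this in the results was not tested. The test was edgeR 4.0.16 under R 4.3.3 (TMM, filterByExpr with minimum count 10 and total 15, quasi-likelihood F-test, group as the only term), with Benjamini-Hochberg adjustment over 14012 genes and a threshold of 0.05. The SE is the absolute log2 fold change over the square root of F. Ratios put KDM1A shRNA over control. Within each group the libraries varied beyond counting noise (chi-square per degree of freedom 1.60 for KDM1A shRNA, 3.97 for control). On simulated counts of this comparison over 14012 genes, 54% of 1.2-fold, 78% of 1.5-fold and 92% of 2-fold changes were recovered, with 6 false calls. The simulation changed 200 genes, where 56.1% of genes were called in the data, so these rates cannot be carried over to this comparison. Positions and transcript lengths are those of GENCODE v44 lifted to GRCh37 (canonical transcript); all 76 members were located. Members described in full were the 8 largest rises and falls past the threshold, the 4 highest levels and the untested member; of other lists, up to 2 genes by p. Genes named beyond this rule, among them DAP3, GABPA, GABPB1, NRF1, YY1 and the other members, were chosen after their values were seen. Members and lists were chosen with earlier results of these data known. Alternatives were RLE, upper quartile and library size scaling, 2 filters, DESeq2 1.42.0, voom in limma 3.58.1, the replicate number as a block and each library left out.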

Additional observations from a re-analysis of the deposited data

How the results depend on the processing

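In DESeq2, 10 members rose and 11 fell, 27.6% of the 76 members. Of all 18019 genes with at least 1 read 32.9% were called, or 36.4% of those with an adjusted p. Leaving out 1 library gave 8 to 26 rises and 7 to 19 falls, or 20% to 60% of the members, where 41.8% to 57.7% of all genes were called, the fewest without a KDM1A shRNA library. The other scalings, filters, voom and the block gave 16 to 24 rises and 16 to 20 falls. That is 46.7% to 53.3% of the members, where 46.3% to 58.1% of all genes were called. The median log2 fold change of the members stayed between 0.02 and 0.05 in every alternative. Of the 37 calls 13 (7 rises, 6 falls) held under all 13 alternatives, no called member changed sign, and 15 of the 38 others passed in at least 1. No share over all genes is given beside these counts of calls that held. In DESeq2, 9 members with a bacterial counterpart rose and 5 fell, and 1 particular to mitochondria rose and 5 fell. Over all alternatives cytosolic ribosomal proteins had 0 to 2 rises and 42 to 63 falls, OXPHOS subunits 6 to 17 rises and 6 to 18 falls, assembly factors 2 to 7 rises and 1 to 5 falls, and translation factors 1 to 5 rises and 4 to 7 falls. Where 1 library was left out, the lone one of its group was assumed to vary like the other group. Upper quartile scaling put the median of all genes at −0.03, against −0.00. The labels number replicates 1 and 2 in each group, but same-numbered libraries shared only a number (correlation of deviations 0.02 over all genes and 0.11 over the members, with 2 pairs only): with the replicate block 20 members rose and 18 fell and 8142 genes were called in all, against 7861. Leaving out the 275 genes that fell 16-fold or further, a choice made after seeing the data, gave 19 rises and 17 falls. That is 48% of the members tested, where 55.2% of all genes were called. MRPS24 stood below 3 reads in every library, and neither depth nor the gene it overlaps was tested as the cause.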

Other observations

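Members often lie head to head with another gene. A protein-coding gene listed in the counts starts within 1000 bases upstream on the opposite strand for 23 of the 76 members, or 30.3%, against 7.89% of 16898 protein-coding genes located. Counted by member, both the member and its partner were tested for 22. Both passed for 4, 2 in the same direction and 2 in opposite directions. MRPL46 and MRPS11, partners of each other, are each counted among the 22. Taken singly, 49.3% of the members tested and 56.1% of all genes tested passed, and a link within pairs was not tested. MRPL13 with MTBP (log2 fold change of the partner 0.38) and MRPL32 with the proteasome subunit gene PSMA2 (0.12) rose together. MRPL51 fell while the condensin gene NCAPD2 rose (0.14), and MRPS18B fell while PPP1R10, a regulatory subunit of protein phosphatase 1, rose (0.14). MRPL46 and MRPS11 are partners of each other, with starts 320 bases apart. MRPS11 rose (0.26), while MRPL46 had 19.6 and 17.8 CPM in KDM1A shRNA libraries against 18.8 and 19.7 CPM in control libraries and did not pass. The calls of PSMA2, NCAPD2 and PPP1R10 were lost without either KDM1A shRNA library. These pairs and their directions were chosen after the values were seen.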
